A study of Mus musculus with 1931 samples.

Results

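The 9 genes described here encode the enzymes and partners that write and erase DNA methylation, and they were chosen by name, by a rule that holds no measured value, from the 20999 genes of the single-cell table. They are the maintenance methyltransferase *Dnmt1* and its recruiter *Uhrf1*, the de novo methyltransferases *Dnmt3a* and *Dnmt3b* with their cofactor *Dnmt3l*, the TET dioxygenases *Tet1*, *Tet2* and *Tet3*, and the thymine DNA glycosylase *Tdg*. All 9 were found in the table and passed the filter on low values (10% of cells with a value above 0 in either group) in every comparison below. Levels were taken from cells with at least 2500 genes above 0, which left 1406 of 1931 wells.

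In the mouse, cytosines are methylated mainly in CpG dinucleotides. DNMT1, guided by UHRF1, copies methylation to the new strand after replication, DNMT3A and DNMT3B set it anew with the help of the catalytically inactive DNMT3L, and TET proteins oxidize it, after which TDG can excise the oxidized base and repair restores an unmethylated cytosine. ESCs held in the inhibitors and cytokine of 2i/LIF medium are known for low methylation, the epiblast gains methylation around implantation, and extraembryonic tissues are known to keep lower levels. The data hold RNA levels only, so that neither protein, enzyme activity nor methylation was measured.

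The cells came from 1 pool of RtL-embryoids, structures that mouse ESC lines form in 3D agarose culture, and from 3 2D cultures. The RtL-embryoids were aggregated from Kermit ESCs, in which the *Pou5f1* promoter drives GFP, 5-Factor ESCs, in which doxycycline (DOX) switches on *Cdx2*, *Tfap2c*, *Eomes*, *Gata3* and *Ets2*, and iGATA6 ESCs marked with mCherry, in which DOX switches on *Gata6*. After 24 h in ESC medium with 2i/LIF and no DOX, structures grew in reconstructed embryo medium with 2 µg/ml DOX over 3 days. The listed components of that medium include neither 2i nor LIF. DOX had been absent for 24 h at collection, and hand-picked structures were pooled, stained for CD40 and sorted as single cells onto plates 3, 4 and 5. The sort was by GFP, mCherry and CD40, but the sample titles give wells and no gate. Columns 1 to 8 are read here as GFP-positive cells (Epi cells), columns 9 to 16 as mCherry-positive cells (VE cells) and columns 17 to 24 as CD40-positive cells (ExE cells). The 2D groups were GFP-sorted Kermit ESCs grown in 2i/LIF without DOX on plate 7, iTSC reprogrammed from 5-Factor ESCs in TSC medium with FGF4 and heparin on plate 8, and iXEN cells reprogrammed from iGATA6 ESCs in XEN medium on plate 9. Both of the latter also had 2 µg/ml DOX over 3 days and then 24 h without it. Every cell in these groups thus derives from ESC lines and not from an embryo, and the transcripts of the transgenes and of the endogenous genes cannot be told apart. Each group is 1 sample, the plates of the 3D cells are read here as technical splits of the same pool, since the methods describe 1 pooled suspension and the sort days of the plates are not given, and no test between groups and no p-value could be had. Differences are therefore set against the spread of plates 3, 4 and 5, which is smaller than the spread of independent pools may be.

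The filter kept 82.2% of the Epi and of the VE wells and 91.9% of the ExE wells, together 982 3D cells, and 44.8% of ESC, 77.5% of iXEN and 49.8% of iTSC wells. TPM keep no read number, and the median number of genes above 0, taken as the depth, was 4823, 5348 and 5396 in the Epi, VE and ExE cells against 8537 to 9093.5 in the 2D groups. In Epi, VE and ExE cells it was higher on plate 3 (5710, 6622 and 6683.5). Plate 4 had 4448, 4913 and 5126, and plate 5 had 4199, 4957 and 4551.5. Every Epi cell and 98.7% of VE cells had more markers of their own tissue above 0 than of either other tissue. In the ExE columns this held for 60.9% of cells, while 36 were led by Epi markers, 28 by VE markers and 74 were tied. The ExE markers were *Cdx2*, *Elf5*, *Eomes*, *Tfap2c*, *Plac1*, *Wnt7b* and *Esx1*. Of these, *Cdx2*, *Eomes* and *Tfap2c* are also transgenes of the 5-Factor line, and *Tfap2c* was above 0 in 39.5% of Epi cells and 87.3% of ESCs. How far the transgenes decide which cells are led by ExE markers was not tested. Of the iTSC 73.05% were led by ExE markers, with 24 cells led by Epi markers and 14 tied, and every ESC and every iXEN cell was led by the markers of its own lineage. VE cells kept *Pou5f1* at 4.53 TP10k and *Dppa5a* at 70.8, with *Nanog*, *Sox2*, *Fgf4*, *Gdf3* and *Tdgf1* at 0.0845 or lower. Fibroblast markers summed to 0.0158 to 0.0476 TP10k in every group.

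Windows of 250 bases before annotated transcription starts are shown for the genes on which the results turn, namely the 3 genes of the de novo group, whose levels moved most between groups, and *Uhrf1*, which followed the S-phase genes. The sequences are from RefSeq on GRCm38.p6, are written 5′ to 3′ on the strand of the gene, and have every CpG in capitals. Windows that overlap an exon of the Gencode annotation are not printed.
Dnmt3a (chr12:3806730-3806979, plus strand): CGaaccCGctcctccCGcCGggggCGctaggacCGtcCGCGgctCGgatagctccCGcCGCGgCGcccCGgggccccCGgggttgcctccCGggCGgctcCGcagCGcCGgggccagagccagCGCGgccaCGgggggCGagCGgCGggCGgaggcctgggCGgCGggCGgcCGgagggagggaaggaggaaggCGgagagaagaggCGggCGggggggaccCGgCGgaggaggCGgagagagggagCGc
Dnmt3b (chr2:153649199-153649448, plus strand): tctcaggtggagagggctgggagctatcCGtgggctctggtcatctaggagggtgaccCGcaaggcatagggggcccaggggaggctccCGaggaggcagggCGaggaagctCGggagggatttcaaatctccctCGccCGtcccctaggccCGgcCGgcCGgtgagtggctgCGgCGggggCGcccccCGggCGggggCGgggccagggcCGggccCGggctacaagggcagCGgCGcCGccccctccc
Dnmt3l (chr10:78049592-78049841, plus strand): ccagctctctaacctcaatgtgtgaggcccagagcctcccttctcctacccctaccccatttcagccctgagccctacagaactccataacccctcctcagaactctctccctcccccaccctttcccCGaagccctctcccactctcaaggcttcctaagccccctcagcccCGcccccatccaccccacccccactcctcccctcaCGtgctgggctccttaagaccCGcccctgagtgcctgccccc
Uhrf1 (chr17:56304063-56304312, plus strand): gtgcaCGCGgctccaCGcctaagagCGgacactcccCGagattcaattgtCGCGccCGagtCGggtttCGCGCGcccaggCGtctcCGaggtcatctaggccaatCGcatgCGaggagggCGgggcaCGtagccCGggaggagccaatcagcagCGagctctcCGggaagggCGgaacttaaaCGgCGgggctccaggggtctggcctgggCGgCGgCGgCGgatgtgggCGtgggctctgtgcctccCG
The shown *Dnmt3a* window holds 38 CpGs and the *Dnmt3b* window 21, more than 98.1% and 83.7% of 32851 mouse windows of this length, in which the median is 6. The 2 other *Dnmt3a* windows, which overlap an exon, hold 40 and 15, more than 98.7% and 72.7%. The *Dnmt3l* window holds 4, more than 37.8%, and the 2 other *Dnmt3l* windows hold 5 and 3. The shown *Uhrf1* window holds 30, more than 94.1%, and the other *Uhrf1* window holds 10, more than 62.2%. Gene-level TPM do not say which of these starts was used.

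The 16 windows of the 9 genes were searched on both strands for 5 motifs. The GC box GGGCGG was in 11 of 16 windows, from 8 of the 9 genes, and in 32.7% of all windows. The shown *Dnmt3a* window overlaps another of that gene in a stretch that holds the box, so that the windows are not independent counts. An E2F site, TTTCGCGC, was in 2 of 16, a window of *Dnmt1* and the *Uhrf1* window above, and in 0.256% of all windows. The E-box CACGTG was in 3 of 16, a *Dnmt3a* window not shown above, the shown *Dnmt3l* window and the *Tdg* window, and in 6.02% of all windows. The letters TAATCC, the core bound by OTX2, were in 1 of 16, for *Tdg*, and in 6.25% of all windows. The octamer ATGCAAAT was in 0 of 16 and in 1.60% of all windows. These letter matches are descriptions of the sequence and not binding sites, and the GC box counts partly repeat the CpG counts, as the motif itself holds a CpG.

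In GRCm38 with the Gencode vM21 annotation, *Dnmt3a* lies on chromosome 12 (3806007 to 3914443), *Dnmt3b* on chromosome 2 (153649450 to 153687730), *Dnmt3l* on chromosome 10 (78041947 to 78063622), all on the plus strand, and *Dnmt1* on the minus strand of chromosome 9 (20907209 to 20959888). SMART-seq2 does not mark the strand, so that reads of *Dnmt3a* and its antisense gene *Dnmt3aos*, of *Dnmt3b* and *Dnmt3bos*, and of *Dnmt3l* and the overlapping *Aire* may be mixed. *Dnmt3c*, a duplicate of *Dnmt3b* known from the male germline, was at 0.00757 TP10k or lower in every group, and how reads were split between the pair was not tested.

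Levels are given as TP10k, the TPM of a cell scaled to a sum of 10000 over the listed genes, as means over the cells of a group. TPM are corrected for transcript length, so that levels of different genes may be set side by side. The largest mean among the writers was that of *Dnmt3l* in iXEN cells (4.51 TP10k), followed by *Dnmt3b* in iTSC (3.56) and *Dnmt3a* in Epi cells (3.29). Each of these 3 genes thus had its highest level in another group.

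**Figure D1:**
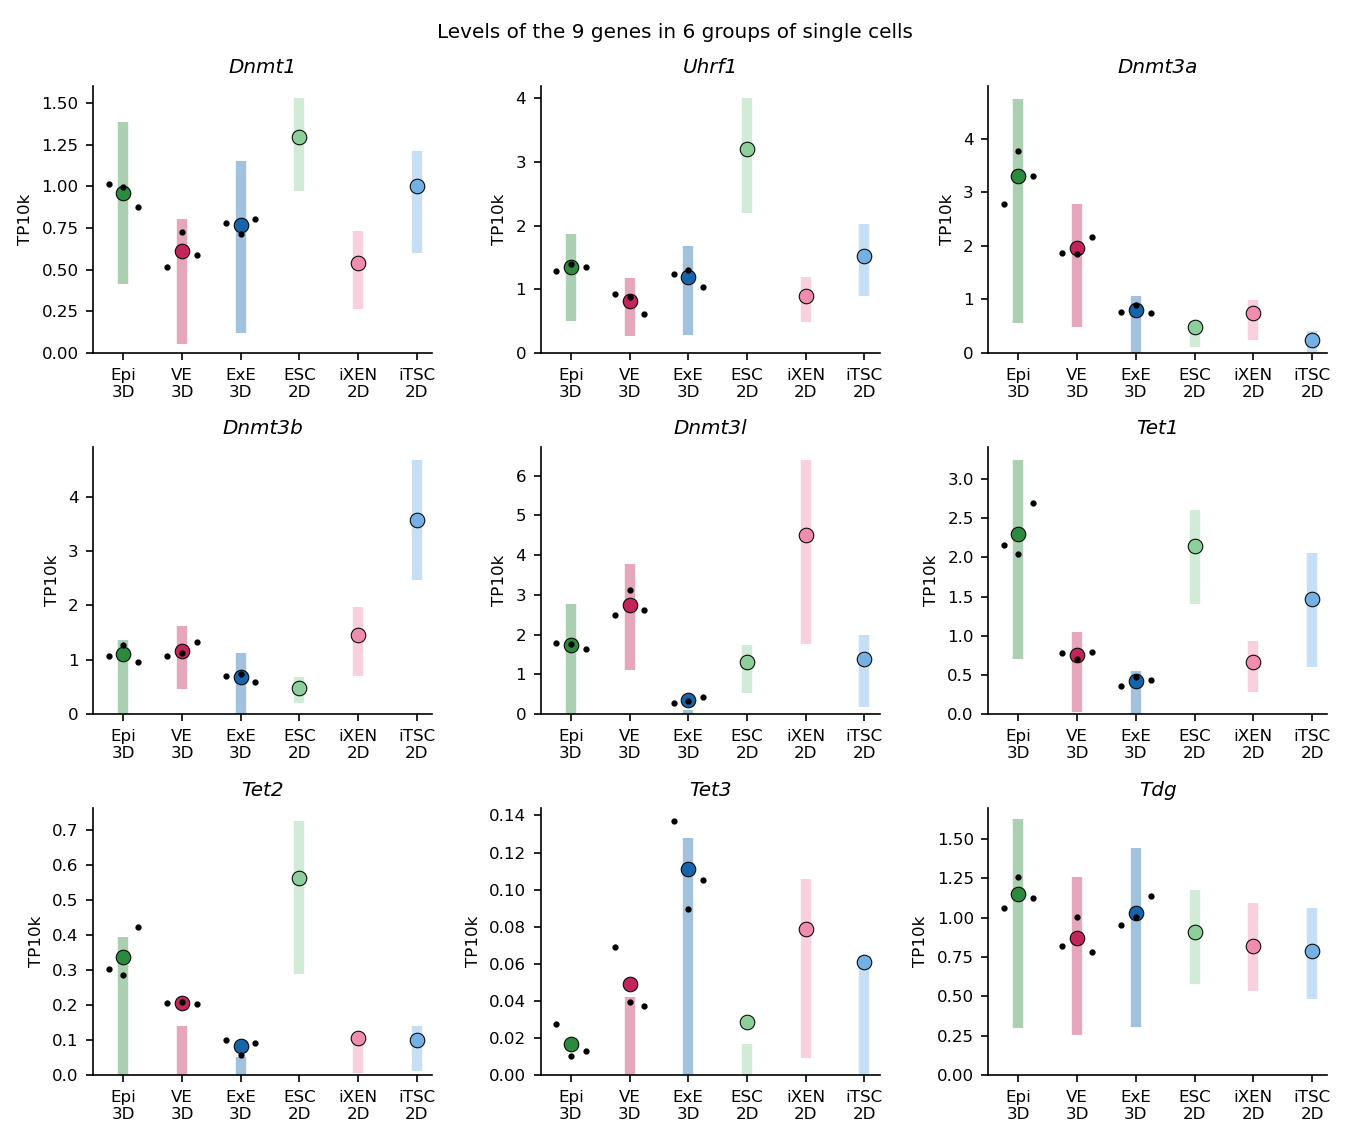
Levels of the 9 genes in TP10k (y axis, linear, a separate scale for each gene) in the 3D Epi, VE and ExE cells and the 2D ESC, iXEN and iTSC (x axis). Large circles are means over cells, pale bars run from the lower to the upper quartile of the cells, and small black dots are the means on plates 3, 4 and 5 from left to right. *Dnmt3a* is highest in Epi cells (3.29), *Dnmt3b* in iTSC (3.56) and *Dnmt3l* in iXEN cells (4.51).

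*Dnmt3a* was at 2.78, 3.77 and 3.30 TP10k in the Epi cells of plates 3, 4 and 5, at 1.86, 1.85 and 2.17 in VE cells and at 0.764, 0.898 and 0.751 in ExE cells. The 3 ranges did not overlap, with Epi cells highest and ExE cells lowest on each plate. Mean levels in 2D were 0.754 in iXEN cells, 0.491 in ESCs and 0.251 in iTSC. By the mean, the 3D cells of each lineage were thus higher than their 2D counterpart. The neighbours ExE and iXEN, 1.07-fold apart, did not differ beyond the spread of the plates, while Epi and VE cells, and VE and ExE cells, did. The 2D means have no plates to set them against. The level was uneven among Epi cells, with a median of 2.28, quartiles of 0.552 and 4.74 and a highest value of 24.6, against a highest value of 13.8 in ESCs. It was above 0 in 84.7% of Epi cells (95% exact binomial interval 80.2 to 88.5, counting error only) against 94.4% of ESCs (89.2 to 97.5), although the ESC mean was lower, and ESCs had more genes per cell.

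*Dnmt3b* was at 1.07, 1.28 and 0.961 TP10k in the Epi cells, at 1.07, 1.11 and 1.33 in the VE cells and at 0.691, 0.741 and 0.593 in the ExE cells of plates 3, 4 and 5. Epi and VE cells overlapped, and ExE cells were below both. In 2D, iTSC were at 3.56, iXEN cells at 1.45 and ESCs at 0.476, so that the trophoblast group was highest in 2D and lowest in 3D. The gene was above 0 in every iTSC and every iXEN cell, and in 68.5% of Epi, 92.7% of VE and 52.97% of ExE cells. In Epi cells the median was 0.449, far below the mean of 1.10, and the highest value was 11.4, whereas in ESCs median (0.418) and mean (0.476) were close.

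*Dnmt3l* was at 1.79, 1.76 and 1.64 TP10k in the Epi cells, at 2.50, 3.13 and 2.61 in the VE cells and at 0.279, 0.336 and 0.430 in the ExE cells of the 3 plates. The ranges did not overlap, with VE cells highest. In 2D the endoderm group was again highest, with iXEN cells at 4.51, iTSC at 1.39 and ESCs at 1.30. Only 25.5% of ExE cells had a value above 0 (exact interval 21.03 to 30.4), against 90.8% of VE cells and 82.98% of iTSC.

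Put together per group, *Dnmt3a* made up 74.9% of the summed *Dnmt3a* and *Dnmt3b* level in Epi cells, 62.7% in VE cells and 54.3% in ExE cells, against 50.8% in ESCs, 34.2% in iXEN cells and 6.58% in iTSC. The sum itself was 4.40 TP10k in Epi cells, 3.11 in VE cells and 1.48 in ExE cells, and 0.967, 2.21 and 3.82 in ESCs, iXEN cells and iTSC. The sums were thus highest in Epi cells and iTSC, but made up mainly of different genes, *Dnmt3a* in the former and *Dnmt3b* in the latter. Both genes were above 0 in 62.4% of Epi, 86.3% of VE and 28.9% of ExE cells. In the ExE columns 30.9% of cells had only *Dnmt3a* and 24.1% only *Dnmt3b* above 0, and 16.1% had neither, with 4569 genes per cell in the median in the last group against 5976.5 in cells with both.

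**Figure D2:**
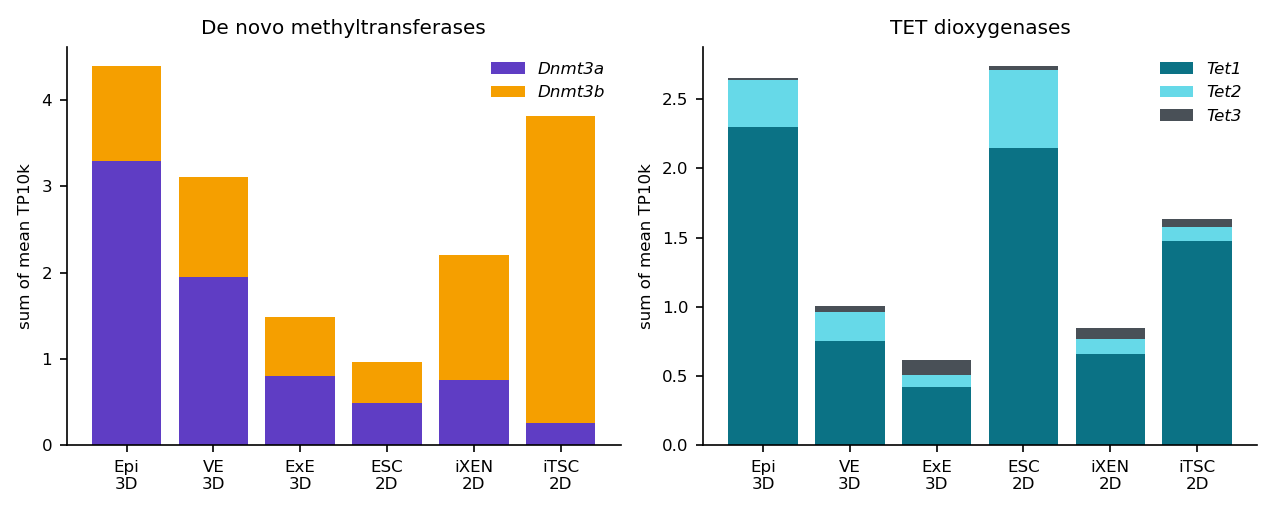
Summed mean levels in TP10k (y axis, from 0) of *Dnmt3a* and *Dnmt3b* (left) and of *Tet1*, *Tet2* and *Tet3* (right) in the 6 groups (x axis), with a colour for each gene. Epi cells (4.40) and iTSC (3.82) have the highest sums of the de novo enzymes, of which *Dnmt3a* is 74.9% and 6.58%.

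Among the maintenance genes, *Uhrf1* was highest in ESCs (3.21 TP10k), followed by iTSC (1.53). It was at 1.29, 1.40 and 1.35 in the Epi cells, 1.24, 1.31 and 1.04 in the ExE cells and 0.932, 0.881 and 0.616 in the VE cells of plates 3, 4 and 5, with 0.892 in iXEN cells. Epi and ExE cells overlapped, as did iXEN and VE cells. *Dnmt1* spanned a smaller range, from 1.29 in ESCs and 1.004 in iTSC over 0.961 in Epi and 0.765 in ExE cells to 0.611 in VE and 0.540 in iXEN cells. The neighbours iTSC and Epi, ExE and VE, and VE and iXEN did not differ beyond the plates. For both genes the endoderm groups were thus at the low end.

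*Tet1*, the main TET gene of pluripotent cells, was at 2.15, 2.04 and 2.70 TP10k in Epi cells and at 2.15 in ESCs, which lay within the Epi plates. It was at 1.47 in iTSC, at 0.773, 0.699 and 0.787 in VE cells, at 0.661 in iXEN cells and at 0.359, 0.477 and 0.429 in ExE cells. *Tet2* was at 0.562 in ESCs, 0.336 in Epi cells and 0.206 in VE cells, and at 0.0834 to 0.106 in the other 3 groups. *Tet3*, the TET enzyme of the oocyte and zygote, ran the other way, with 0.111 in ExE cells and 0.0168 in Epi cells, but it was low throughout, and its share of the summed TET level was 18.04% in ExE cells and 0.634% in Epi cells. It was above 0 in 48.4% of ExE cells (exact interval 43.1 to 53.8), 37.5% of VE cells (32.1 to 43.1) and 11.8% of Epi cells (8.43 to 15.9), groups whose numbers of genes per cell were closer to each other than to those in 2D. *Tet1* was the larger part in every group, from 68.4% in ExE cells to 90.1% in iTSC. *Tdg* varied least, between 0.788 in iTSC and 1.15 in Epi cells, with overlapping plates of Epi and ExE cells and an ESC mean (0.911) within the VE plates.

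The ratios of these means were read against all genes that 10% or more of the cells in either group had above 0. A gene counts as past 2-fold if the ratio of the means was at least 2 or at most 0.5 and, for 3D cells, went the same way on each plate. In Epi cells against ESCs, 2 of the 9 genes were past 2-fold higher, *Dnmt3a* and *Dnmt3b*, where 11.1% of 13109 genes were, and 1 was lower, *Uhrf1*, where 9.21% were. *Dnmt3a* was 6.71-fold higher, with a log2 ratio of 2.75 and plate values of 2.50, 2.94 and 2.75. *Uhrf1* was 2.38-fold lower, with a log2 ratio of -1.25 and -1.32 to -1.20 on the plates. *Dnmt3b* was 2.32-fold higher by the mean (log2 1.22, plates 1.01 to 1.43), but the difference of mean log2(TPM + 1), which weighs the many cells at 0, was -0.32, so that its direction depends on the measure. In cells with 6000 to 8000 genes, of which 33 were Epi cells and 5 ESCs, its log2 ratio was 0.79, under the threshold. In this comparison the culture format, the medium with or without 2i/LIF, DOX, the plate with any library batch, and the depth all go with the group. They cannot be told apart. Format, medium, plate and depth also go with the group for VE against iXEN cells and for ExE cells against iTSC.

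Against the VE cells of the same plates, Epi cells were past 2-fold higher for 1 of the 9 genes (16.3% of 10662 genes) and lower for 1 (16.3%). *Tet1* was 3.06-fold higher (log2 1.61, plates 1.48 to 1.78) and *Tet3* 2.93-fold lower (log2 -1.55, plates -1.91 to -1.33). By mean log2(TPM + 1) *Tet3* differed by -0.63, both groups being near 0. Among the cells with 6000 to 8000 genes *Tet1* was at 1.36 on the log2 scale, but its direction was not the same on each plate. *Dnmt3a* was 1.69-fold higher and *Dnmt3l* 1.59-fold lower, both in the same direction on each plate but under the threshold. Against ExE cells the difference was wider, with 4 of the 9 genes past 2-fold higher (8.98% of 10886 genes) and 1 lower (15.5%). *Tet1* was 5.47-fold, *Dnmt3l* 4.99-fold, *Dnmt3a* 4.10-fold and *Tet2* 4.03-fold higher in Epi cells, and *Tet3* was 6.60-fold lower. *Dnmt1*, *Uhrf1* and *Tdg* differed by 1.26-fold or less. These 3 comparisons share the Epi cells and are not independent of each other.

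VE cells against iXEN cells gave the fewest differences, with 1 of the 9 genes past 2-fold higher (4.38% of 12248 genes) and 0 lower (8.92%). The 1 gene was *Dnmt3a*, 2.59-fold higher in VE cells (log2 1.37, plates 1.30 to 1.53). Among cells with 6000 to 8000 genes the log2 ratio was 0.84, under the threshold. *Dnmt3b*, *Uhrf1*, *Dnmt1*, *Tet1* and *Tdg* were within 1.25-fold of each other in the 2 groups. ExE cells against iTSC gave 1 of the 9 genes past 2-fold higher (10.2% of 13012 genes) and 3 lower (14.5%). *Dnmt3b* was 5.27-fold lower in ExE cells (log2 -2.40, plates -2.59 to -2.27), *Dnmt3l* 4.02-fold (log2 -2.01) and *Tet1* 3.50-fold lower (log2 -1.81). *Dnmt3a* was 3.20-fold higher by the mean (log2 1.68), but 0.45 by mean log2(TPM + 1) and -0.04 by mean log2(TPM + 0.1), so that its call and its direction depend on the measure. TPM as deposited in place of TP10k moved the median log2 ratio of all genes in this comparison by 0.20 and in that of iTSC with ESCs by -0.15, and by less than 0.05 in the other 5.

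The 2D comparisons rest on 1 plate per group and have no split to set them against. iTSC against ESCs gave 2 of the 9 genes past 2-fold higher (22.3% of 13788 genes) and 2 lower (11.1%). *Dnmt3b* was 7.50-fold higher and *Tet2* 5.60-fold lower, while *Uhrf1* (2.10-fold lower) and *Tet3* (2.11-fold higher) lay near the threshold. *Uhrf1* had a log2 ratio of -0.91 in cells with 6000 to 8000 genes, and *Tet3* was 1.08 on the log2 scale in TP10k, 0.95 in TPM and -0.01 among cells with 6000 to 8000 genes. iXEN cells against ESCs gave 3 of the 9 genes past 2-fold higher (20.4% of 13681 genes) and 4 lower (19.2%). *Dnmt3l* was 3.46-fold, *Dnmt3b* 3.05-fold and *Tet3* 2.74-fold higher, and *Tet2* was 5.28-fold, *Uhrf1* 3.59-fold, *Tet1* 3.25-fold and *Dnmt1* 2.39-fold lower in iXEN cells. In the range of 6000 to 8000 genes, where only 5 ESCs remained, *Tet3* differed by 0.23 on the log2 scale. Both comparisons use the ESCs, as does that with Epi cells.

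**Figure D3:**
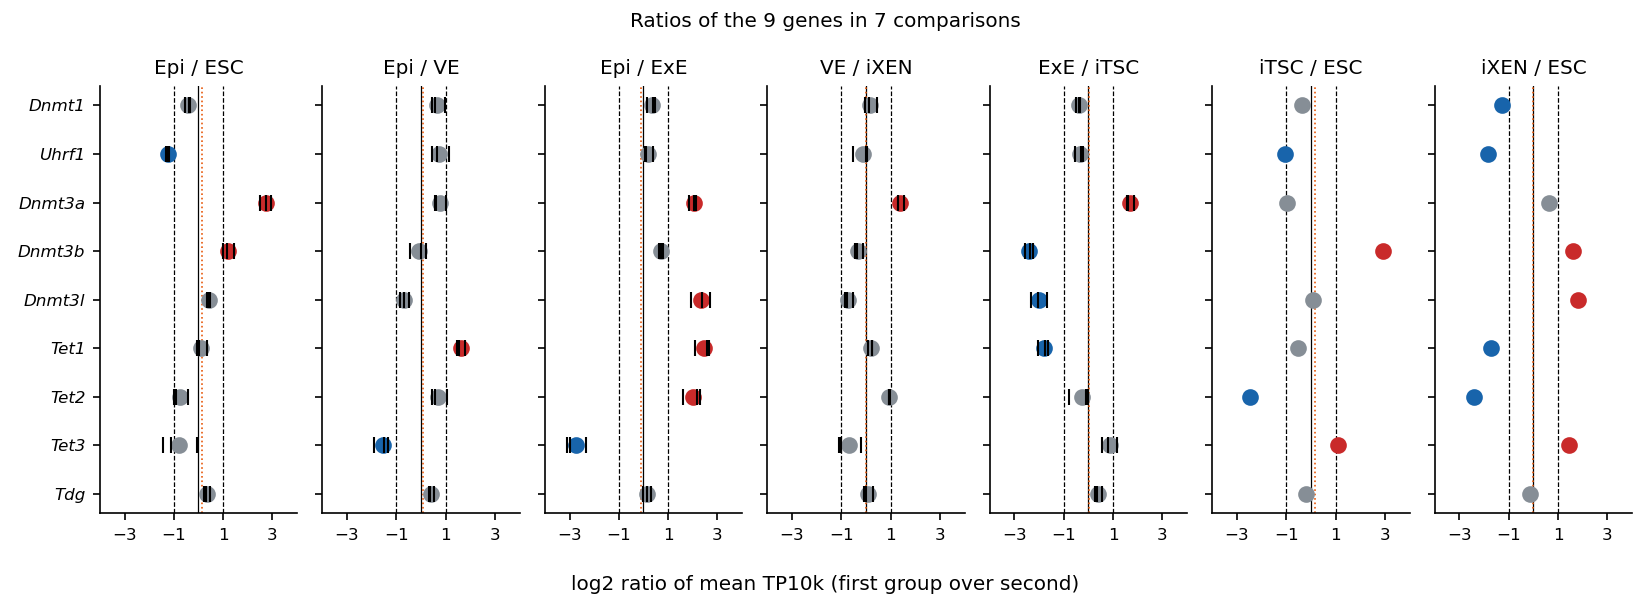
Log2 ratios of mean TP10k (x axis) of the 9 genes (y axis) in 7 comparisons (panels, first group over second). Black ticks are the values on plates 3, 4 and 5, dashed lines mark 2-fold, the dotted line is the median of all genes tested, and circles are red where past 2-fold higher, blue where past 2-fold lower and grey otherwise. *Dnmt3a* lies right of the dashed line in each 3D group against its 2D counterpart (2.75, 1.37 and 1.68), although the last value turned to -0.04 by mean log2(TPM + 0.1).

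The uneven levels within the Epi cells were described next, as these cells are read as coming from the same sort gate and lay on the same plates. Their depth was not even, with 2550 to 7684 genes per cell and medians of 5710, 4448 and 4199 on plates 3, 4 and 5. Spearman's rho of *Dnmt3a* and *Dnmt3b* over the Epi cells was 0.504, with 0.611, 0.499 and 0.408 on plates 3, 4 and 5 and 0.388 in the cells with 4000 to 5500 genes. The 35 other pairs among the 9 genes lay between -0.115 and 0.145, *Dnmt3l* with either de novo enzyme included (-0.002 and 0.104). In the other groups *Dnmt3a* and *Dnmt3b* had values of -0.179 to 0.049. Such correlations over cells share the depth of the cell, which had a rho of 0.110 with *Dnmt3a* and 0.221 with *Dnmt3b*, and they carry no test here. Both genes also went with the summed level of 10 genes of the G2 and M phases, such as *Top2a*. That rho was 0.240 for *Dnmt3a* (plates 0.164 to 0.290) and 0.189 for *Dnmt3b* (plates 0.0908 to 0.268). How far it bears on the value of 0.504 was not tested.

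Both genes went against the summed level of the naive pluripotency genes. With the summed level of 10 naive genes (*Klf2*, *Klf4*, *Klf5*, *Tfcp2l1*, *Tbx3*, *Esrrb*, *Zfp42*, *Prdm14*, *Nr5a2*, *Fbxo15*) rho was -0.534 for *Dnmt3b* (plates -0.642 to -0.371) and -0.377 for *Dnmt3a* (plates -0.463 to -0.203). With the sum of 7 genes of the primed state, among them *Fgf5*, *Otx2* and *Lef1*, it was 0.338 and 0.431. The sums were not scaled per gene, so that abundant genes weigh most. In Epi cells *Zfp42* (4.47 TP10k) and *Fbxo15* (1.93) were the largest parts of the mean naive sum of 9.10. Correlations with single naive genes were not taken. When the Epi cells were ordered by the naive sum and divided into 4 groups of 78 or 79 cells, mean *Dnmt3b* was 2.83, 0.702, 0.515 and 0.357 TP10k from the lowest naive sum to the highest. The lowest group was at 2.24 to 3.60 on the plates and the highest at 0.279 to 0.418, with no overlap. Mean *Dnmt3a* was 5.91, 2.62, 2.85 and 1.78. The lowest group stood apart also here, at 4.45 to 7.01 on the plates, while the other 3 groups overlapped. Median genes per cell differed little between the 4 groups, from 4628 to 5040. The lowest group held 19, 36 and 24 cells of plates 3, 4 and 5, and the highest 29, 19 and 31. *Tet2* was above 0 in 37.97% of cells in the group with the lowest naive sum and in 67.9% to 74.4% in the other 3, but its means (0.237, 0.398, 0.404 and 0.306) had no such order. Nor had the means of *Dnmt1*, *Uhrf1*, *Dnmt3l*, *Tet1* and *Tdg*, and the plates of the lowest and the highest group overlapped for each of these 6 genes.

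**Figure D4:**
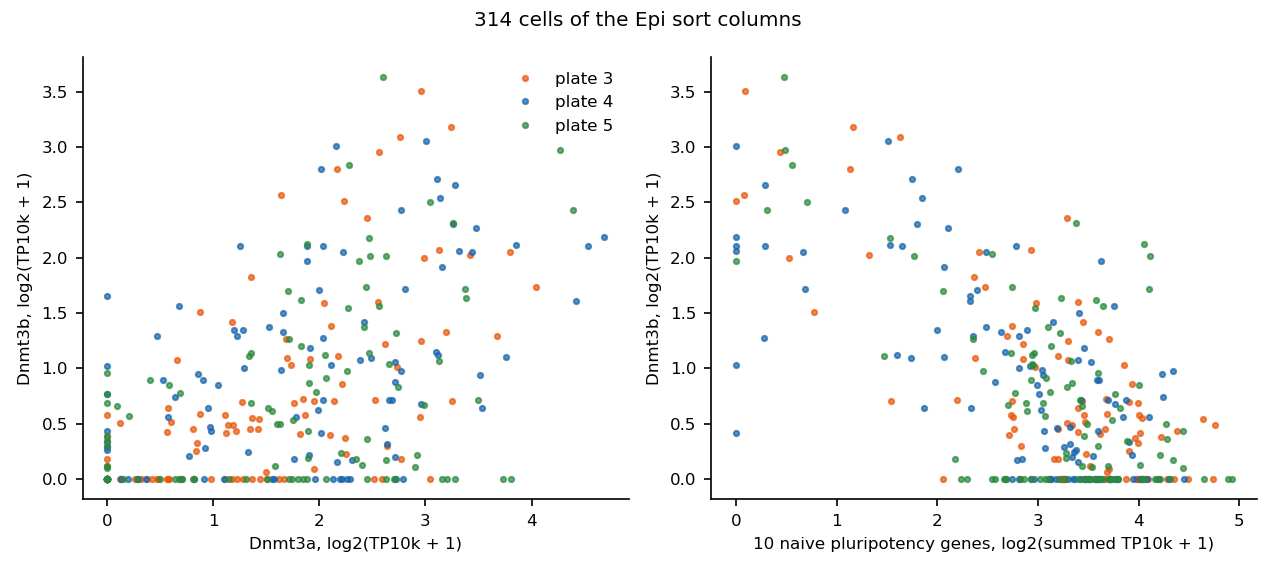
Single Epi cells (points, coloured by plate) by *Dnmt3b* as log2(TP10k + 1) (y axes) against *Dnmt3a* on the same scale (left) and against the summed naive genes as log2(TP10k + 1) (right). Cells with a low naive sum are rarely at 0 for *Dnmt3b*, and rho is 0.504 on the left and -0.534 on the right.

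The Epi cells were also split by whether a single gene was above 0. *Fgf5* and *Otx2* are on the primed list, so that these splits repeat part of it. The 51 Epi cells with *Fgf5*, a gene of the primed epiblast, above 0 had *Dnmt3b* at 2.57 TP10k (plates 2.34 to 2.72) against 0.821 (0.694 to 0.981) in the others, and *Dnmt3a* at 5.32 (4.32 to 6.10) against 2.90 (2.44 to 3.36). They had more genes per cell (median 5410 against 4747), and *Dnmt3l* was at 2.17 (2.10 to 2.30) against 1.64 (1.54 to 1.73). *Tet2* was lower in them, at 0.170 (0.107 to 0.208) against 0.368 (0.307 to 0.469). *Tet3* was higher but low in both, at 0.0457 (0.0292 to 0.0606) against 0.0112 (0.00645 to 0.0201). The 53.5% of cells with *Otx2* above 0 had *Dnmt3b* at 1.53 against 0.611 and *Dnmt3a* at 4.11 against 2.36, with no overlap of the plates and with more genes per cell (median 4970.5 against 4633). *Dnmt3l* went the other way than in the *Fgf5* split, at 1.60 (plates 1.40 to 1.70) against 1.88 (1.86 to 1.90). The plates of *Tet2* overlapped between the *Otx2* groups (means 0.292 and 0.386). In the 39.5% of cells with *Tfap2c* above 0, a gene of naive and germ cell states, both de novo enzymes were lower. *Dnmt3b* was at 0.446 against 1.53 and *Dnmt3a* at 1.74 against 4.31, with medians of 4853.5 and 4822 genes per cell. In the 36.3% of cells with *Dppa3* above 0, a maternal and germ cell factor known to keep UHRF1 from chromatin, *Dnmt3a* was at 2.32 against 3.85 and *Dnmt3l* at 2.24 against 1.44, with no overlap of the plates for either gene and medians of 5044.5 and 4722.5 genes per cell, while *Dnmt3b* (0.948 and 1.19), *Uhrf1* (1.31 and 1.37) and *Dnmt1* (1.01 and 0.933) overlapped.

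*Uhrf1* went with the S-phase genes to a different degree in each group. Its rho with the sum of 12 S-phase genes such as *Mcm2* and *Pcna* was 0.659 in ESCs, 0.399 in ExE, 0.377 in Epi (plates 0.271 to 0.483), 0.312 in iXEN, 0.293 in iTSC and 0.291 in VE cells. For *Dnmt1* it was 0.468 in iXEN, 0.370 in ExE, 0.202 in iTSC, 0.193 in VE and 0.149 in Epi cells and 0.130 in ESCs, above that of *Uhrf1* only in iXEN cells. The groups also differed in the S-phase sum itself, which was 44.6 TP10k in ESCs, 31.6 in Epi cells, 27.2 in iTSC, 24.9 in ExE, 20.2 in VE and 19.7 in iXEN cells, with the ESCs highest and both endoderm groups lowest, as for mean *Uhrf1*. How far this bears on the group means of *Uhrf1* was not tested. *Dnmt3b* and *Dnmt3l* had a rho of 0.427 in iXEN cells, 0.391 in ExE cells and 0.293 in ESCs, and of 0.104, 0.0703 and -0.0547 in Epi cells, VE cells and iTSC. Both also went with the sum of the G2 and M phase genes in iXEN cells (0.316 and 0.337) and ExE cells (0.378 and 0.228). In ESCs they did not (-0.00293 and -0.0529). How far this bears on the rho of the 2 genes was not tested. *Dnmt3l* with the naive sum was at 0.586 in iXEN cells and 0.319 in VE cells and between -0.0775 and 0.131 in the other groups. In iXEN cells that sum (mean 4.21 TP10k) came mostly from *Klf5* (1.36), *Fbxo15* (1.09) and *Zfp42* (1.02). *Esrrb*, *Klf2*, *Prdm14* and *Nr5a2* were at 0.00863 or lower there. In VE cells *Klf5* (2.01), *Zfp42* (1.40) and *Fbxo15* (1.15) were its largest parts. These values thus do not speak for the naive genes as a set.

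**Figure D5:**
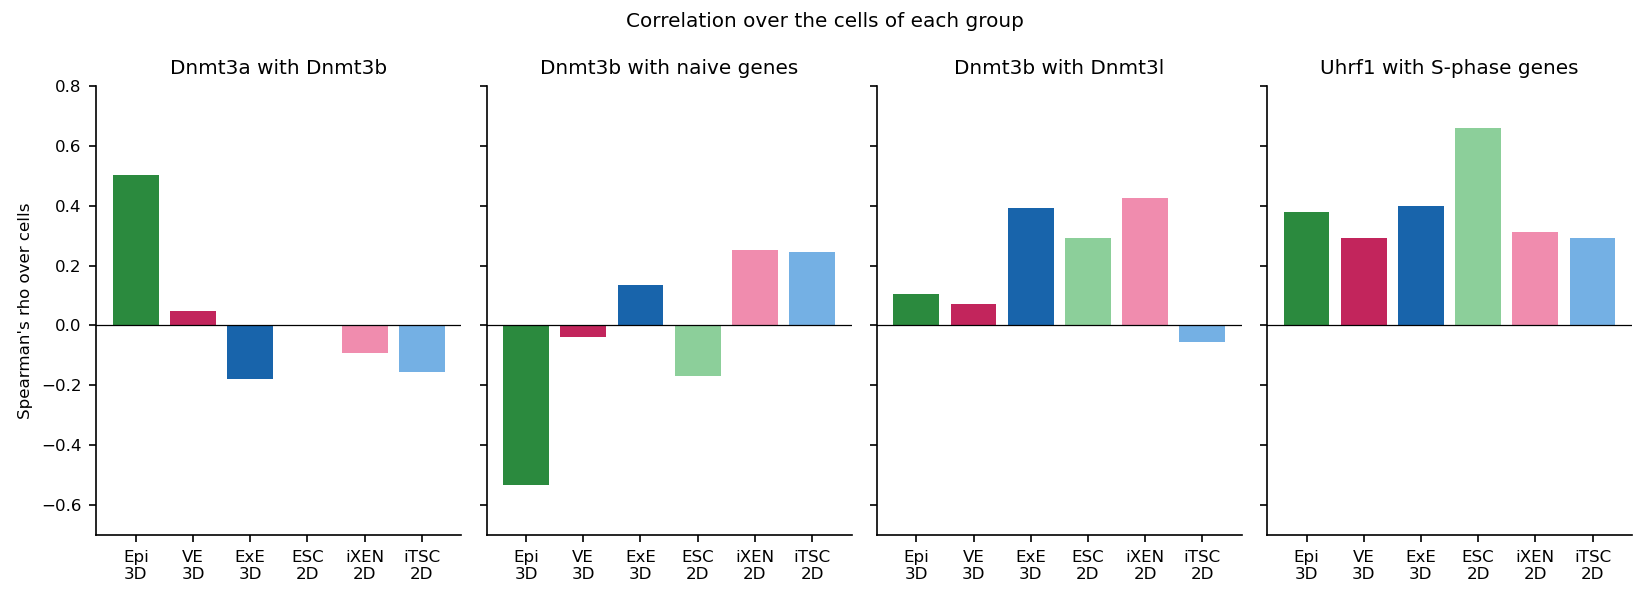
Spearman's rho over the cells of each group (y axis) for 4 pairs (panels), with the 6 groups on the x axis. *Dnmt3a* with *Dnmt3b* reaches 0.504 in Epi cells and lies between -0.179 and 0.049 elsewhere, while *Uhrf1* with the S-phase genes is positive in all 6 groups (0.291 to 0.659).

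The cells of the ExE columns and the iTSC were mixed by their markers, and the values were compared between their parts. In the ExE-column cells led by ExE markers, *Dnmt3b* was at 0.839 TP10k (plates 0.799 to 0.893) against 0.196 (0.106 to 0.336) in the 74 tied cells, and *Dnmt3a* was at 0.677 (0.512 to 0.798) against 1.19 (0.867 to 1.36). The plates did not overlap for either gene, and the tied cells had fewer genes per cell (median 4985 against 5712). *Dnmt3l* stayed low in all parts of the ExE columns, from 0.315 in cells led by ExE markers to 0.514 in the 36 led by Epi markers, where it was 0 on 1 plate. The 28 cells led by VE markers had *Dnmt3l* at 0.397 against 2.77 in the cells so led of the VE columns. In the 24 iTSC led by Epi markers *Dnmt3l* was at 2.43 against 1.13 in those led by ExE markers, and *Tet1* at 2.60 against 1.24, while *Dnmt3b* was at 3.51 and 3.59. Using only 3D cells led by their own markers left every count of genes past 2-fold as it was.

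Over 12 profiles, the 9 combinations of column block and plate and the 3 2D cultures, the members fell into different patterns. Pearson's r of mean ln(TP10k + 1) was 0.895 for *Dnmt1* with *Uhrf1*, 0.833 for *Tet1* with *Tet2* and -0.791 for *Tet1* with *Tet3*, whereas *Dnmt3a* and *Dnmt3b* were at -0.174, in contrast to their values over Epi cells. The plates of a block share a pool, so that these are descriptions of 6 groups. Of 11962 genes that 25% or more of the cells in some group had above 0, the one most like *Dnmt3a* was *Klf13* (r = 0.967). Most like *Dnmt3b* was *Frrs1l* (0.945), most like *Dnmt3l* were *Apoe* (0.958) and *Nid2* (0.953), and most like *Uhrf1* was *Bop1* (0.976). *Bcat1* (0.972) came closest to *Dnmt1*, *Adap2* (0.968) and *Ltbp4* (0.967) to *Tet1*, *Sp2* (0.977) to *Tet2*, *Tmem109* (0.966) to *Tet3* and *Pex7* (0.908) to *Tdg*. *Frrs1l* (0.00362 to 0.0495 TP10k) and *Adap2* (0.00179 to 0.0845) were low in all 6 groups. These genes were picked as the most alike among 11962, and how high the best r is for unrelated genes was not tested.

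Other genes of the pathway were taken from lists by role. Of 8 partners of maintenance methylation, 1 was past 2-fold higher in Epi cells than in ESCs, *Dppa3* (1.96 against 0.341 TP10k), which works against maintenance as said above, and 1 lower, the deacetylase *Hdac1* (4.25 against 9.37), with a median log2 ratio of 0.06 against 0.13 over all genes, of which 11.1% were higher and 9.21% lower. *Dppa3* was above 0 in a smaller share of Epi cells (36.3%) than of ESCs (59.2%), so that its higher mean does not hold for most Epi cells. Against VE cells 4 of the 8 partners were higher and 1 lower (16.3% of all genes in each direction), with a median of 0.85 against 0.07, and the S-phase genes had a median of 0.72. *Hells*, a chromatin remodeller needed for methylation, was at 3.09 in Epi cells and 0.965 in VE cells, and its activator *Cdca7* at 1.60 and 0.283. Against ExE cells 2 were higher (8.98% of all genes), *Hells* and *Dppa3*, with *Cdca7* at 1.60 and 1.24. Between iXEN cells and ESCs, 7 of 8 were lower and 1 higher, *Uhrf2* (0.623 against 0.248), with a median of -1.33 against -0.02 over all genes, of which 19.2% were lower and 20.4% higher. Of the 12 S-phase genes 8 were lower in the same comparison, with a median of -1.28, and *Pcna* is on both lists, so that the part of the S-phase genes in the former count was not tested. *Uhrf2*, a relative of *Uhrf1* that does not take over its part in maintenance, was lowest in ESCs and Epi cells (0.248 and 0.346).

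Of 7 genes that protect imprints, 3 were past 2-fold higher in Epi than in VE cells, *Zfp57*, *Setdb1* and *Arid4a*, where 16.3% of all genes were, with a median log2 ratio of 0.996 against 0.07. Between Epi cells and ESCs 0 differed by that much, where 11.1% of all genes were higher and 9.21% lower. *Zfp57*, which guards imprinted regions, was at 2.26 in Epi cells, 2.49 in ESCs and 2.19 in iTSC, and at 0.566 to 0.744 in VE, ExE and iXEN cells. Of 12 genes of excision repair, which follows TDG, 3 were higher in Epi than in VE cells, *Parp1* (7.06 against 3.00), *Ung* and *Neil3*, and 0 were lower, where 16.3% of all genes were in each direction. In the same comparison, among 8 readers of methylated DNA, of which 7 were found in enough cells, 3 were higher and 3 lower in Epi cells. *Mbd2* was at 0.139 in Epi cells and at 0.408 and 0.578 in VE and ExE cells, and *Mbd4*, a glycosylase, at 0.235, 0.0883 and 0.115. Proteins that bind unmethylated CpG islands showed 0 of the 7 that were found in enough cells past 2-fold in Epi cells against ESCs and against VE cells. Over all genes 11.1% were higher and 9.21% lower against ESCs, and 16.3% in each direction against VE cells.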

How the data were processed

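RNA of single sorted cells was sequenced by SMART-seq2 from 1 pool of RtL-embryoids (plates 3, 4 and 5) and 3 2D cultures. The authors pseudoaligned reads to the mouse GRCm38 transcriptome with kallisto, summarized them per gene with tximport, removed mitochondrial, ribosomal and pseudogene entries and deposited TPM. Read numbers are not given in this unit, so that the depth is unknown and genes above 0 stood in for it. The study's minimum of reads per cell was not applied. Of the wells 39 had no values, and no doublet caller was run on the sorted cells.

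TPM were scaled to a sum of 10000 per cell (TP10k) in cells with at least 2500 genes (314 Epi, 315 VE, 353 ExE, 142 ESC, 141 iXEN and 141 iTSC cells), and ratios of means were taken with Python 3.11.15, numpy 2.4.6, pandas 2.3.3 and scipy 1.17.1, with figures by matplotlib 3.10.9. The scripts were tested on simulated data. Exact binomial intervals (Clopper-Pearson, 95%) cover counting error only. With 1 sample per group no test was run. Named genes were the 9 members, genes of the lists, those past 2-fold first, and the 3 genes most like each member, of which 1 to 3 are given. The rule for the members names genes and uses no measured value, but members and lists were chosen with earlier results of these data known. Splits by single genes and by the naive sum were described as they stand. Positions were taken from Gencode vM21, in which 20856 of 20999 symbols were found. Alternatives were TPM as deposited, mean log2(TPM + 1) and log2(TPM + 0.1), a minimum of 4000 genes, each 3D plate left out, 3D cells led by their own markers, cells with 6000 to 8000 genes, and no filter on low values.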

Additional observations from a re-analysis of the deposited data

Results flagged for a closer look

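*Dnmt3b* moved in opposite directions between 3D and 2D cells in 2 lineages. The log2 ratio of mean TP10k was 1.22 for Epi cells over ESCs and -2.40 for ExE cells over iTSC, with the respective sign on each of plates 3, 4 and 5. The difference between these effects was not tested, since each group is 1 sample. By mean log2(TPM + 1) the former ratio was -0.32, so that the opposite directions rest on the comparison of means.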

How the results depend on the processing

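No paired analysis was possible because each group is 1 sample, the plates are read as technical splits of 1 pool and no test was run. Of 55 recomputed counts of members past 2-fold, 46 stayed within 1.5 times the reported count. By mean log2(TPM + 1) the count rose to 4 for Epi against VE cells (from 2) and to 2 for VE against iXEN cells (from 1). By mean log2(TPM + 0.1) it was 7 for Epi cells against ESCs (from 3), 6 for Epi against VE cells, 5 for VE against iXEN cells and 7 for iTSC against ESCs (from 4). In cells with 6000 to 8000 genes it was 1 for Epi against VE cells and 0 for VE against iXEN cells. With each plate left out, counts ranged from 3 to 4 for Epi cells against ESCs, from 1 to 2 for VE against iXEN cells (2 without plate 3) and from 4 to 5 for ExE cells against iTSC, and stayed at 2 and 5 for Epi against VE and ExE cells. Of 495 recomputed log2 ratios, 67.7% stayed within 1 SD of the plates (for 2D pairs, the mean SD of the 3D comparisons), 31.5% moved further and 4 changed sign after a call. The last were *Dnmt3b* in Epi cells over ESCs (-0.32 and -1.13 with pseudocounts of 1 and 0.1), *Dnmt3a* in ExE cells over iTSC (-0.039 with 0.1) and *Tet3* in iTSC over ESCs (-0.0100 in cells with 6000 to 8000 genes, of which only 5 were ESCs). The cause was not tested. The alternatives for the correlations were chosen after seeing the data, and of 36 values 35 kept within the limit, while *Dnmt3a* with *Dnmt3b* fell from 0.504 to 0.388 in cells with 4000 to 5500 genes. Without the filter on low values, the number of all genes past 2-fold rose by over 1.5 times in 6 of 7 comparisons, for VE against iXEN cells from 1629 to 4557. Depth was not measured, and low levels such as those of *Tet3* moved with the pseudocount, the unit and the range of genes per cell.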

Other observations

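Among genes whose promoters are known to be silenced by methylation in somatic cells and used in the germline, 14 were looked at. Of these, 8 were found in enough Epi cells or ESCs, of which 3 were past 2-fold higher in Epi cells (*Ddx4*, *Mael*, *Sycp3*) and 2 lower (*Dazl*, *Sohlh2*). *Mael* was at 0.204 TP10k in Epi cells and 0.0468 in ESCs, and *Dazl* at 0.107 and 0.251. Over all genes 11.1% were higher and 9.21% lower. Against VE cells 4 of 8 were higher in Epi cells and 1 lower, where 16.3% of all genes were in each direction. *Hormad1*, a meiotic gene, was at 0.226 in Epi and 0.00105 in VE cells. The meiotic gene *Sycp3* was highest in iXEN cells, at 1.59 against 0.5005 in VE cells and 0.0703 in ESCs. In VE cells 5 of 10 genes were lower than in iXEN cells and 0 higher, where 8.92% of all genes were lower and 4.38% higher.

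*Gadd45a*, a stress gene that has been linked to demethylation, was at 1.60 TP10k in Epi cells and at 0.184 to 0.511 in the other 5 groups, while *Gadd45b* was lowest in Epi cells, at 0.0497 against 0.596 in ESCs and 1.03 in iXEN cells. Of 11 genes of methyl donor metabolism, 0 were past 2-fold higher and 2 lower in Epi cells than in ESCs (*Ahcy*, *Mtap*), where 11.1% of all genes were higher and 9.21% lower. In iXEN cells 4 were lower than in ESCs, *Mat2a* and *Ahcy* among them, where 19.2% of all genes were. Of 8 genes that supply or modify TET enzymes, 1 was higher in Epi cells than in ESCs, where 11.1% of all genes were. It was the ascorbate transporter *Slc23a1* (0.151 against 0.0188). *Idh2*, a mitochondrial enzyme that makes the TET cosubstrate, was at 10.6 in iTSC, 6.53 in ESCs and 6.16 in Epi cells, and at 3.399 to 3.97 in iXEN, VE and ExE cells.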
